A study of Mus musculus with 2 samples.

Results

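Complex I genes were described in total RNA of mouse heart through 46 genes, which were all genes of 55450 in the read-based transcript tables whose symbol begins with Nduf and which have a transcript annotated as protein coding. They comprised 36 subunits, 8 assembly factors of the Ndufaf family, and Ndufa4 with its paralog Ndufa4l2. The series holds 2 libraries, each from the heart of a different female mouse of strain B6CASTF1/J at an age of 25 days, an F1 hybrid of a C57BL/6 laboratory strain and the wild-derived CAST strain. RNA input was 300 ng, ERCC transcripts were spiked in, and the labels number the hearts as biological replicates 1 and 2 of 1 group, with no treatment listed. The labels give the animals separate numbers but the same donor entry, so every spread below rests on reading them as separate animals. There was thus no condition to compare, and the levels of the 46 genes in both hearts, their modules, their transcripts and the differences between the 2 libraries are given.

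Complex I, the NADH:ubiquinone oxidoreductase, is the entry point of electrons from NADH into the respiratory chain of the inner mitochondrial membrane. Its N module oxidises NADH, its Q module passes electrons to ubiquinone, and its P modules, in the membrane, pump protons; the P module has a proximal and a distal part. Core subunits carry the catalytic centres and are shared with the bacterial enzyme, accessory subunits surround them, and 7 core subunits of the membrane arm are encoded by mitochondrial DNA and were not selected by symbol. Assembly factors help to build or modify the complex and are not part of the finished enzyme. Heart muscle is rich in mitochondria and relies on this chain for most of its ATP.

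The libraries held 42966704 and 42720820 expected counts over genes in replicates 1 and 2. Levels are in TPM (reads corrected for transcript length and scaled to the same sum in each library), from the alignment-based gene tables unless read-based values are named. A gene was called detected at 1 TPM or more in both hearts, and a pair of values gives replicate 1 first and replicate 2 second. The tissue label was checked against marker lists: all 8 cardiomyocyte markers were detected, at a median of 4243 and 4447 TPM. Fibroblast, endothelial, smooth muscle and macrophage markers were also all detected, at medians from 12.9 to 76.5 TPM. Of 11 liver markers 3 were detected, and the summed level of all 11 was 8.44 TPM in replicate 1 and 39.2 TPM in replicate 2. Alb, below the detection level in replicate 1 only, stood at 0.03 and 13.4 TPM. Of 7 erythroid markers 6 were detected, and all 7 summed to 11302 and 10824 TPM. Of 6 brown adipocyte markers 4 were detected, and of 8 fast skeletal muscle markers 2. The brown adipocyte marker Ucp1 stood at 3.14 and 5.83 TPM. Of the 5 markers of that list that were tested, 3 were higher in replicate 2 and 2 in replicate 1. Depth was alike, and no library was left out. Differences between the libraries in heart cell type and liver markers are given beside the results they touch.

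In TPM every subunit stood above every Ndufaf assembly factor, by far at the median and by less at the edges. The median over the 36 subunits was 329 and 326 TPM, against 22.8 and 22.8 TPM over the 8 Ndufaf factors, a ratio of 14.4 and 14.3 (3.84 ± 0.0087 as a log2 ratio of TPM + 0.1, SD, n = 2). All 36 subunits stood above all 8 factors in both hearts, in the alignment-based and in the read-based tables. The gap between the edges of the groups was 2.18-fold and 1.85-fold from the lowest subunit, Ndufb4, to the highest factor. This gap rested on Ndufb4, whose reads are shared with a pseudogene. Read-based, the gap was 3.57-fold and 3.20-fold, with Ndufb3 as the lowest subunit. In the read-based tables the ratio of medians was 18.2 and 16.8. No test was run, because the smallest p of an exact sign-flip test over 2 hearts is 0.5 and genes are not replicates of a group. Placed among the 10985 detected protein-coding genes, subunits lay between the 91.8 and the 99.4 percentile (median 98.3) and factors between the 52.1 and the 82.1 percentile (median 76.1). Together the subunits took up 13217 and 13230 TPM, and 0.67% and 0.70% of the gene counts.

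**Figure D1:**
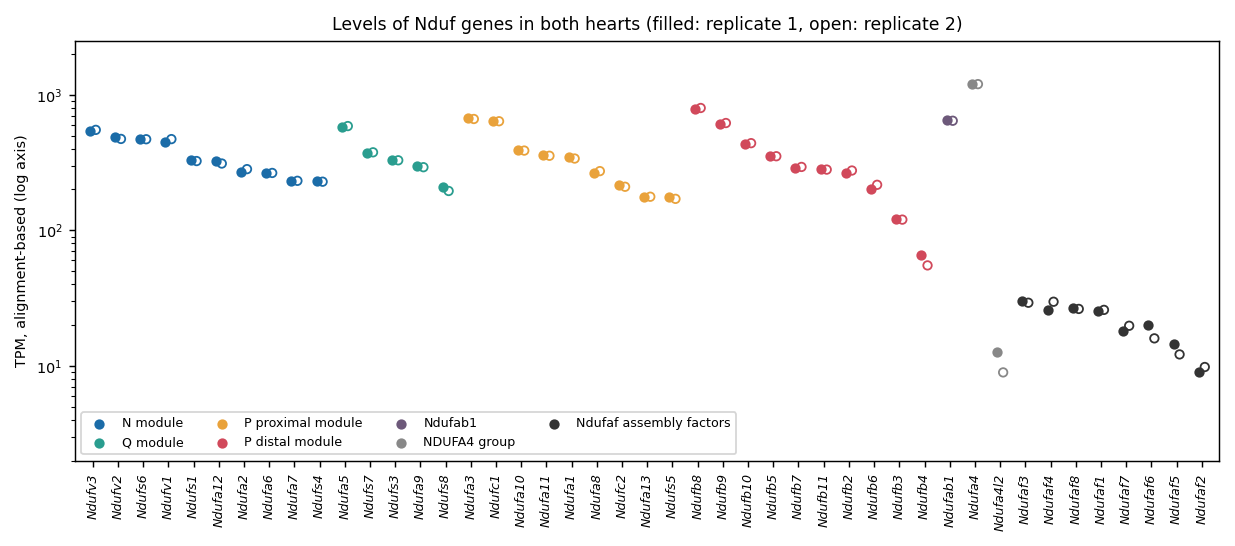
TPM of the complex I genes (log axis, alignment-based) in replicate 1 (filled) and replicate 2 (open), grouped by module and ordered by mean within it. The subunits sit between 55.1 and 798 TPM, the 8 Ndufaf factors between 9.05 and 29.99 TPM, and Ndufa4 and Ndufa4l2 at opposite ends of the axis.

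The modules lay close together. Median levels were 327 and 317 TPM for the N module (10 genes), 350.3 and 352 TPM for the Q module (6), 347 and 338 TPM for the proximal P module (9), and 286 and 287 TPM for the distal P module (10). Means ± SD of these medians were 322 ± 6.57, 351 ± 1.32, 343 ± 6.11 and 286 ± 0.834 TPM (n = 2). In both hearts the distal P module was lowest, but in the read-based tables it stood at 459 TPM, above the N module at 435 and the proximal P module at 355, so the order of modules rested on the quantification. Within a module, mean levels of both hearts ranged 2.37-fold in N, 2.90-fold in Q, 3.85-fold in proximal P and 13.1-fold in distal P. The last rested on Ndufb4, whose reads are shared with a pseudogene: with both summed the distal P range was 6.56-fold. Read-based ranges were 3.04-fold (N), 3.98-fold (Q), 2.51-fold (proximal P) and 7.26-fold (distal P). The 7 core subunits had a median of 372 and 376 TPM, and the 29 accessory subunits one of 298 and 293 TPM.

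In the N module, the 3 core subunits carry the flavin and iron-sulfur clusters. Ndufv2, which holds an iron-sulfur cluster, stood at 486 and 472 TPM. Ndufv1, which binds NADH and the flavin, stood at 449 and 470.5 TPM. Ndufs1, the largest core subunit of this module, stood at 329 and 324 TPM. Of these Ndufs1 was lowest in both hearts, and Ndufv2 and Ndufv1 were nearly level in replicate 2. The accessory Ndufv3 led the module at 544 and 550.4 TPM, and the zinc-binding Ndufs6 stood at 469 in each. Ndufa12, Ndufa2 and Ndufa6 lay between 263 and 324 TPM. Lowest were Ndufa7, at 230.3 and 232 TPM, and Ndufs4, whose loss in mice is used as a model of Leigh syndrome, at 233 and 228 TPM. The order of these last 2 differed between the hearts.

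The Q module was led by the accessory Ndufa5 at 579.6 and 587 TPM. The core subunit Ndufs7, which carries an iron-sulfur cluster near the ubiquinone site, stood at 372 and 376 TPM. Ndufs3, another core subunit, stood at 328 TPM in each heart, and the accessory Ndufa9 at 298 and 292 TPM. Ndufs8, which holds iron-sulfur clusters, was lowest at 207 and 195 TPM.

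The membrane arm held both the highest and the lowest subunit. Of the proximal P subunits, Ndufa3 stood at 674 and 662 TPM, Ndufc1 at 645 and 637 TPM and Ndufa10, which has a nucleoside kinase fold, at 391 and 387 TPM. Ndufa11, Ndufa1, Ndufa8 and Ndufc2 lay between 209.5 and 359 TPM. At the low end, Ndufa13, also known as GRIM-19, stood at 175 and 177 TPM and Ndufs5 at 177 and 171 TPM, again with an order that differed between the hearts. Of the distal P subunits, Ndufb8, often used as an antibody marker of the complex, was the highest of all 36 subunits at 779 and 798 TPM (ENSMUSG00000025204.10, chromosome 19, positions 44548572 to 44555440 of mm10, minus strand). Ndufb9, a protein of the LYR family, stood at 603 and 618 TPM and Ndufb10 at 430.2 and 439 TPM. Ndufb5, Ndufb7, Ndufb11, Ndufb2 and Ndufb6 lay between 202 and 355 TPM. The 2 lowest of the 36 subunits were in this module, Ndufb3 at 120.4 and 119.9 TPM and Ndufb4 at 65.5 and 55.1 TPM (ENSMUSG00000022820.4, chromosome 16, positions 37647170 to 37654453, minus strand). By read-based means Ndufb3 was lowest at 193 TPM, followed by Ndufs8 of the Q module at 225.5 TPM. Ndufb1-ps, listed with the distal P module but annotated as a long noncoding RNA, lay outside the rule and stood at 142 and 135 TPM. Ndufab1, the mitochondrial acyl carrier protein, which LYR subunits bind, was counted apart and stood at 645 and 643 TPM.

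The Ndufaf factors act at different steps of assembly and spanned a 3.31-fold and 3.03-fold range. Ndufaf3, at 29.99 and 29.24 TPM, and Ndufaf4, at 25.8 and 29.7 TPM, are partners in building the Q module. Ndufaf1, which belongs to the membrane arm assembly complex, stood at 25.5 and 25.9 TPM. Ndufaf8 stood at 26.8 and 26.3 TPM, and its partner Ndufaf5, which modifies Ndufs7, at 14.5 and 12.2 TPM. Ndufaf7, a methyltransferase, stood at 18.2 and 19.8 TPM, and Ndufaf6 at 20.14 and 15.97 TPM. Ndufaf2, a paralog of the subunit Ndufa12, was lowest at 9.05 and 9.82 TPM. Ndufaf3, Ndufaf4, Ndufaf8 and Ndufaf1 lay close together in each heart, and their order was not the same in both. Assembly factors of other names were at the same level: 12 of the 13 symbols listed were found and detected, with a median of 23.3 and 23.7 TPM, from Nubpl at 4.12 and 3.40 TPM to Tmem126a at 49.1 and 47.6 TPM. Acad9, Ecsit and Tmem126b, the partners of Ndufaf1 in the membrane arm, stood at 18.75 and 20.96, 39.4 and 40.2, and 10.4 and 9.17 TPM.

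Complex II, which has no proton pump and shares the ubiquinone pool, gave a like picture of subunits and factors. Its 4 subunits had a median of 462 and 474 TPM and its 4 assembly factors one of 16.2 and 17.1 TPM. The 7 complex I subunits of mitochondrial DNA were higher than any nuclear one, with a median of 6933 and 7317 TPM, from mt-Nd6 at 1280 and 1509 TPM to mt-Nd1 at 10712 and 11015 TPM. For mt-Nd4l, whose reading frame overlaps that of mt-Nd4, the tables disagreed: 7748 and 7887 TPM alignment-based, 129 and 175 TPM read-based.

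Ndufa4, named as a complex I subunit and later assigned to cytochrome c oxidase, was the highest of the 46 genes at 1196 and 1197 TPM (ENSMUSG00000029632.7, chromosome 6, positions 11900292 to 11907497, minus strand). In the read-based tables Ndufa4 stood at 1137 and 1271 TPM, below Ndufb8 at 1339 and 1467 TPM, so the top place rested on the quantification. Ndufa4l2, the paralog of Ndufa4, is known to be induced by hypoxia and stood at 12.7 and 8.96 TPM. It was the gene with the widest spread between the hearts, with a coefficient of variation of 24.6%, against a median of 1.20% over the subunits and 5.87% over the Ndufaf factors.

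Subunit levels differed between the quantifications. The alignment-based tables used an effective length 99 bases below the length of a transcript (all 131176 transcripts over 300 bases). The read-based tables used one 333 or 325 bases below it in replicates 1 and 2 (42569 transcripts over 2000 bases), a subtraction that weighs more in short transcripts. Its part in the subunit levels was not tested. By mean TPM, 30 of the 36 subunits were higher read-based, and Ndufa3, Ndufc1 and Ndufa1 were among those that were lower. The median fold of read-based over alignment-based TPM was 1.39 over the subunits, 1.69 over the distal P module and 1.40 over the Ndufaf factors. Over 10963 detected protein-coding genes it was 1.17, and over the 1278 of them with an effective length under 1000 bases 1.30. Across the 36 subunits, Spearman's rho of TPM between the hearts was 0.997, and between the quantifications 0.831. The log2 fold of read-based over alignment-based TPM had a rho of 0 with effective length. These are given as a description, since the genes share their libraries.

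**Figure D2:**
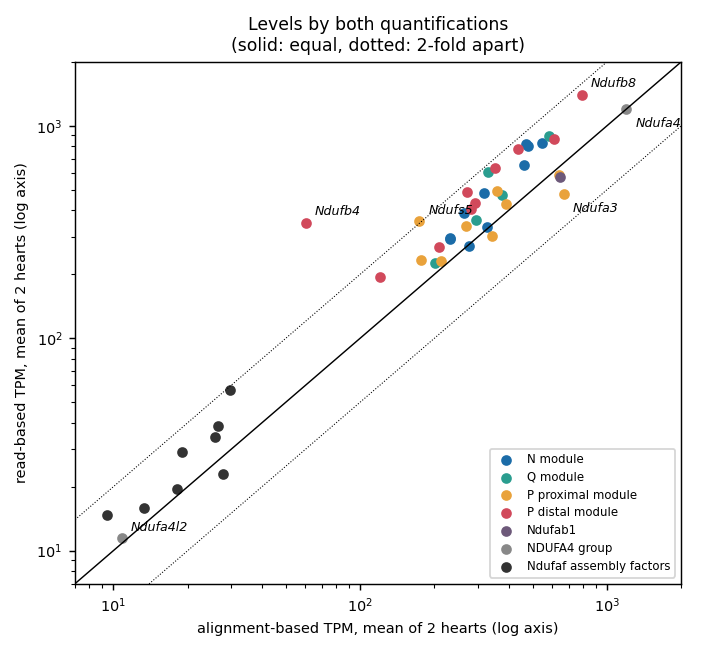
Mean TPM of 2 hearts for the complex I genes, alignment-based (x) against read-based (y), both on log axes, coloured by module. Most genes lie above the line of equality, and Ndufb4 and Ndufs5 lie beyond the dotted line of a 2-fold difference.

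In the mean of both hearts, Ndufb4 and Ndufs5 differed at least 2-fold between the quantifications and no other member did, in a background where 2.34% of detected protein-coding genes did. In replicate 2 alone Ndufaf3 did too, at 29.24 against 60.7 TPM. Ndufb4 stood at 65.5 and 55.1 TPM alignment-based and at 357 and 344 TPM read-based. Its processed pseudogene Ndufb4c, on chromosome 15 at positions 73809507 to 73809896 of mm10 and outside the rule for members, stood at 250.5 and 252 TPM alignment-based and at 0 read-based. CAST alleles of gene and copy were not compared. In the reference, all 390 bases of Ndufb4c are identical to a stretch of the spliced transcript Ndufb4-201. A read of reference sequence within that stretch thus cannot tell the gene from the copy. The stretches of 60 bases across 2 exon joins of Ndufb4-201, taken from the GENCODE M21 transcripts, show this, since a pseudogene without introns carries the joined exons too. Capitals mark the downstream exon, and each run was found in Ndufb4c as well.
Ndufb4-201 exons 1 and 2: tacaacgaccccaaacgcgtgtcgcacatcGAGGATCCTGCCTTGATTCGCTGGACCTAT
Ndufb4-201 exons 2 and 3: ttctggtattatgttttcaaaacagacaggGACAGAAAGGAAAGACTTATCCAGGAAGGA
Gene and pseudogene together gave 316 and 307 TPM in the alignment-based tables, against 357 and 344 TPM read-based, where the pseudogene was listed at 0. These levels were not of the same transcripts. Read-based, the retained intron Ndufb4-202 held 90.7 and 90.3% of Ndufb4. Alignment-based, the coding Ndufb4-201 led at 49.45 and 68.44%. In counts the sums were 3840 and 3931 against 2347 and 2377. The alignment-based sum in TPM lay above the level of Ndufb3, so the place of Ndufb4 as the lowest subunit rested on this split. Ndufs5 stood at 177 and 171 TPM alignment-based and at 358 and 351 TPM read-based. Its processed pseudogene BC002163, which shares a run of 214 bases with Ndufs5-203, took 805 and 899.5 counts alignment-based and 0 read-based. Together, gene and pseudogene gave 285 and 288 TPM. Elsewhere the split ran the other way: Gm4459, a processed pseudogene of Ndufab1, took 269 and 292 counts alignment-based against 1416 and 1587 read-based, and the counts of Ndufab1 were 8514 and 8595 against 4872 and 4776. Gm15920, a processed pseudogene of Ndufa12, took 895 and 838 counts against 708 and 682, and Gm49356, a coding gene that overlaps Ndufb9, 30.3 and 34.7 counts against 564 and 535. Levels of these 5 members are therefore uncertain, and those of the others are not thereby settled. Ndufa1, for instance, had 3751 and 3779 counts alignment-based against 1215 and 1216 read-based. Its TPM were closer, at 347 and 338 against 310 and 298.

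Transcripts annotated as other than protein coding took a large part of several subunits. The deposited percentages give each transcript's share of its gene. In the alignment-based tables the leading transcript was annotated as protein coding in 38 of 46 genes, against 93.7% of 10985 detected protein-coding genes and 90.4% of those at 100 TPM or more. By the read-based tables a coding transcript led in 33 of 46, against 91.7% and 85.9% of the genes so defined there. The other comparisons leave out 6 members with only 1 transcript. The leading transcript was the same in both hearts in 40 of 40 genes alignment-based and in 34 of 40 read-based. Over detected protein-coding genes with several transcripts the shares were 89.5% and 86.4%. Over those at 100 TPM or more they were 97.6% and 92.1%. Both quantifications named the same leader in 25 of 40 genes, against 76.3%. The median share of coding transcripts was 92.8% over the members, 93.6% over the subunits and 67.2% over the Ndufaf factors. It was 93.7% over the detected protein-coding genes and 98.4% over those at 100 TPM or more.

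**Figure D3:**
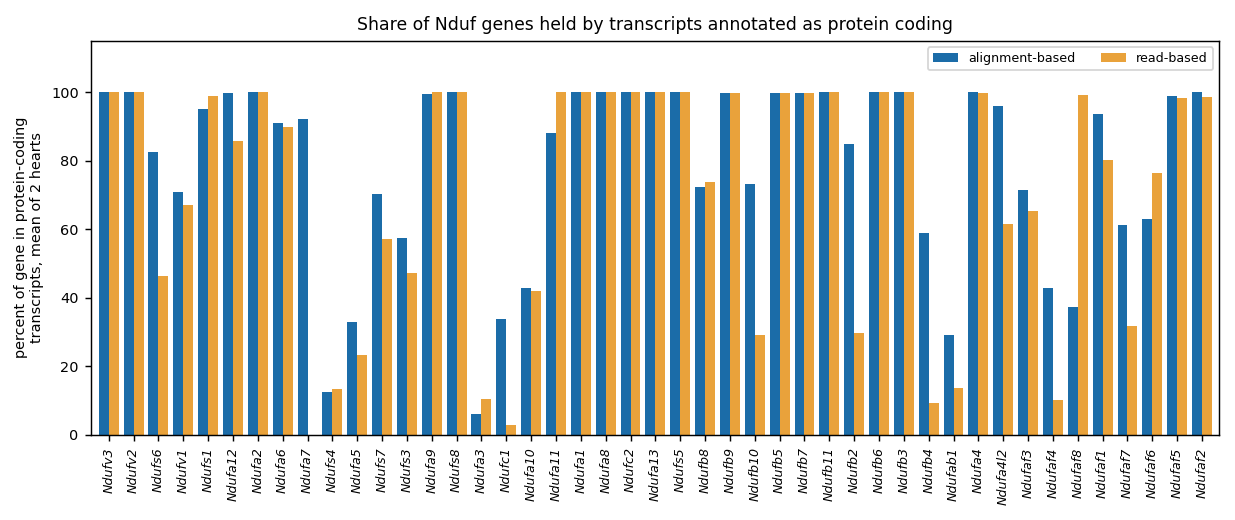
Percent of each gene's TPM held by transcripts annotated as protein coding, mean of 2 hearts, in the alignment-based (blue) and read-based (orange) tables, in the order of the plot of levels. Ndufs4, Ndufa3, Ndufc1, Ndufa5 and Ndufab1 are at 33.8 or lower by both, and Ndufa7 is at 92.1 in the first and at 0 in the second.

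Among the most abundant of these genes, Ndufa3 was led by Ndufa3-204, annotated as a target of nonsense-mediated decay, at 94.3 and 93.3% of the gene. The read-based tables gave it 40.8 and 51.1%. Ndufc1 was led by Ndufc1-203, a retained intron, at 59.87 and 60.01%, while the read-based tables gave 97.1% in each heart to the processed transcript Ndufc1-202 and 0 to Ndufc1-203. These transcripts are 500 bases (Ndufc1-202) and 311 bases (Ndufc1-203) long. Ndufa5 was led by the processed transcript Ndufa5-204 at 66.6 and 66.2% (71.7 and 43.8% read-based). Ndufab1 was led by the retained intron Ndufab1-205 at 38.2 and 38.6% (84.8 and 86.2% read-based). By both quantifications the coding share of these 4 genes was 33.8% or lower.

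Ndufs4 was led by Ndufs4-204, annotated for nonsense-mediated decay, at 49.1 and 51.7% (56.3 and 57.6% read-based), with 12.4 and 13.4% in coding transcripts by the 2 quantifications. Ndufaf4, Ndufaf7 and Ndufaf8 were the other genes whose leader was not annotated as protein coding. It was the processed transcript Ndufaf4-202 for Ndufaf4, and a retained intron for Ndufaf7 and for Ndufaf8. For Ndufaf8 the read-based tables placed the coding Ndufaf8-202 first, at 86.1 and 80.0%, against 10.5 and 18.8% alignment-based. Further high genes changed their leading transcript with the quantification. For Ndufs6 it was the coding Ndufs6-201 (84.5 and 79.3%) or Ndufs6-202, annotated for decay (53.1 and 54.5% read-based). For Ndufb10 it was the coding Ndufb10-201 (72.1 and 74.2%), while read-based a retained intron led in each heart, Ndufb10-205 at 45.4% in replicate 1 and Ndufb10-204 at 44.7% in replicate 2. For Ndufs3 it was the coding Ndufs3-201 (56.7 and 58.3%) alignment-based, and read-based it was level with the processed transcript Ndufs3-204 (49.8 against 48.0% in replicate 1, 44.4 against 49.9% in replicate 2). Ndufa4, Ndufb8 and Ndufs7 moved between coding transcripts. An annotation other than protein coding says nothing on whether a protein was made, which was not measured.

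For Ndufv3 both quantifications gave the same answer, as they did for Ndufb7 and Ndufb9. Its short coding form, Ndufv3-202, made up 99.1 and 99.1% of the gene alignment-based and 99.1 and 99.2% read-based. The long form, Ndufv3-201, held 0.87 and 0.76% (0.686 and 0.672% read-based), or 4.75 and 4.17 TPM against 538 and 545 TPM of the short form. The forms differ by an exon of 1092 bases, exon 3 of 4, at positions 31527310 to 31528401 of chromosome 17 (mm10), whose length is divisible by 3. The joins that tell the forms apart are shown with 30 bases on each side, and capitals mark the long form's extra exon. Each run occurs in 1 annotated transcript.
Ndufv3-202 skip join: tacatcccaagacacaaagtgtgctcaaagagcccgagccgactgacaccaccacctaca
Ndufv3-201 upstream join: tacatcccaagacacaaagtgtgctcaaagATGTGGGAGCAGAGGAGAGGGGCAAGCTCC
Ndufv3-201 downstream join: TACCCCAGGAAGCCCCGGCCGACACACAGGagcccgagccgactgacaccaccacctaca
The lower-case run on either side of the capitals is the flank that both forms share, and in the short form the flanks meet directly.

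Members often lay head to head with another gene. A protein-coding gene on the opposite strand started within 1000 bases of 21 of the 46 members (45.7%), of 16 of 36 subunits and 4 of 8 Ndufaf factors, against 16.5% of 10985 detected protein-coding genes. The member stood above its partner in both hearts in 20 of the 21 pairs. This share was not computed for other gene pairs. Subunits lay at a median percentile of 98.3 among detected protein-coding genes, so most genes of any kind stood below them. Ndufs6 and Mrpl36, a gene of the mitochondrial ribosome, start 29 bases apart and stood at 469 and 469 against 20.3 and 21.5 TPM. Ndufs1 and the translation elongation factor gene Eef1b2 start 8 bases apart and stood at 329 and 324 against 148 and 147 TPM. The exception was Ndufa7, at 230.3 and 232 TPM, whose neighbour Rps28, a gene of the cytosolic ribosome 10 bases away, stood at 294 and 269 TPM. Opposite-strand genes detected here overlap 13 of the 46 members. The spike-in label names stranded libraries, but the strand setting of the counting is not given in the sources used here, so reads in such overlaps could not be told apart with certainty.

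Promoters of 40 of the 46 members were matched by symbol to RefSeq windows of GRCm38.p6, 250 bases before to 50 bases after a gene's start. Letters of 5 motifs were searched on both strands. The core of NRF1, a regulator of nuclear genes for mitochondrial proteins, was searched as GCGCANGCG and stood in 10 of 40 members (25.0%), against 16.2% of 8611 detected protein-coding genes and 7.03% of all 27025 genes with a window. The YY1 letters AAGATGGCG stood in 6 members (15.0%; 3.86% of detected coding and 1.64% of all genes). The letters AAGGTCA of estrogen-related receptors, known as regulators of energy metabolism in heart, stood in 3 members (7.50%; 3.73% and 5.38%). The ETS core CCGGAAG stood in 6 (15.0%; 21.1% and 9.93%) and CCAAT in 14 (35.0%; 43.0% and 41.1%). These counts are small and were not tested, and a match describes letters, not binding. Ndufb4, with 3 NRF1 matches and an AAGGTCA, and Ndufs6, with NRF1 and YY1 letters in the window that faces Mrpl36, are printed in full on the strand of the gene. Capitals mark those matches, on either strand.
Ndufb4 promoter, chr16:37654319-37654618, minus strand: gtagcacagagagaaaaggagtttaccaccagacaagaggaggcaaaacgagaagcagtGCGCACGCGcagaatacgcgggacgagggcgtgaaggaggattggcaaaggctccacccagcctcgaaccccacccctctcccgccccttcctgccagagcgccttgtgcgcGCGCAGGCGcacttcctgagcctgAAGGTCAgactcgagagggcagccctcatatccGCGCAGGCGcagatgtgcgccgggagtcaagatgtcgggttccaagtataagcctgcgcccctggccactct
Ndufs6 promoter, chr13:73328433-73328732, minus strand: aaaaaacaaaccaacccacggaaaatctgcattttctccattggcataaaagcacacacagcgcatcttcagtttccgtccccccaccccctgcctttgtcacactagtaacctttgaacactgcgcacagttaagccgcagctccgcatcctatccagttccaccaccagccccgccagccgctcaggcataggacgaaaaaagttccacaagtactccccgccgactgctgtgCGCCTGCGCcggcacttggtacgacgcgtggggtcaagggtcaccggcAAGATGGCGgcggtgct
Mrpl36 starts within the printed Ndufs6 window, and the levels of the pair were 22.5-fold apart (mean of both hearts).

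Between the 2 libraries the complex I genes differed little. Counts were scaled with TMM, and the split of each gene's counts was tested with a two-sided exact binomial test, with Benjamini-Hochberg adjustment over 15839 genes. At an adjusted p under 0.05 and any ratio, 26 of 46 members were called, where 20.3% of all genes tested and 38.6% of those with mean counts from 1000 up were. Higher in replicate 2 were 25 members, 22 of them subunits (9.42% of all genes), and higher in replicate 1 was Ndufa4l2 (10.9% of all genes). By the stricter rule, which also asks for a ratio of at least 2 and separate deposited credibility intervals, 0 members were called (0.821% of all genes). This test compares 2 libraries, covers counting error only and treats reads as independent molecules.

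The direction of the subunits depended on the scaling. With TMM, 35 of 36 subunits were higher in replicate 2, by a median log2 ratio of 0.09, as were 31 to 35 with other scalings, but with spike-in totals 13 were (median -0.01, 9 members called) and in TPM as deposited 16 (median -0.01). The Ndufaf factors had a median of 0.12 with TMM, 0.02 with spike-in totals and -0.002 in TPM. The 4 complex II subunits (median 0.13) and the 7 mitochondrial complex I genes (0.11) were also higher in replicate 2 with TMM. Cardiomyocyte markers went with them, at 8 of 8 higher in replicate 2 (median 0.13, summed 38025 and 39611 TPM). Fibroblast (1 of 8), endothelial (2 of 8), smooth muscle (0 of 6) and macrophage (0 of 7) markers were mostly lower there. All 11 liver markers were called higher in replicate 2, at a median log2 ratio of 6.70. The part of these markers in the result was not tested. In RNA of whole tissue, fewer cells of a type and less RNA per cell cannot be told apart.

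**Figure D4:**
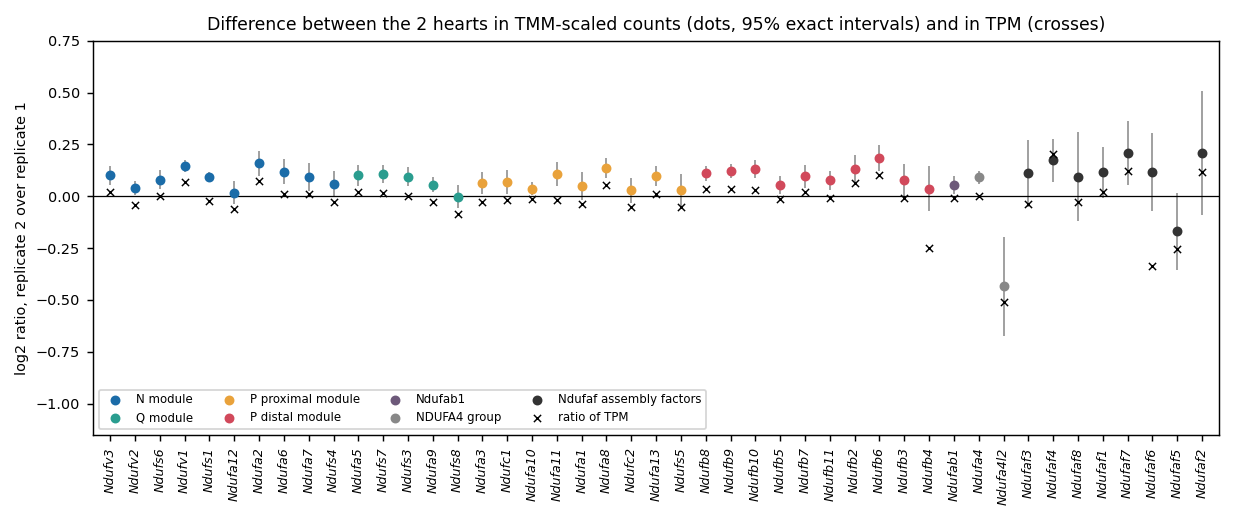
Log2 ratio of replicate 2 over replicate 1 for the complex I genes, in TMM-scaled counts (dots, with exact 95% intervals for counting error) and in TPM as deposited (crosses). The dots of the subunits lie between -0.001 and 0.18 and the crosses mostly lower, around 0, and Ndufa4l2 lies at -0.43.

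The called ratios were small. Ndufaf7 had 661 and 743 counts, a ratio of 1.16 in scaled counts (95% exact interval 1.04 to 1.28, adjusted p = 0.0397 in the exact binomial test). Ndufb6 was 1.14-fold higher in replicate 2 (1.09 to 1.19), Ndufaf4 1.13-fold (1.05 to 1.21), Ndufa2 1.12-fold (1.07 to 1.16) and Ndufv1 1.11-fold (1.08 to 1.13). Ndufs1, with far more counts, at 25574 and 26548, was called at a ratio of 1.07 (1.05 to 1.09). Ndufa4l2 had 351 and 253 counts and was 1.35-fold higher in replicate 1 (1.15 to 1.59, adjusted p = 0.00253 in the same test). The smooth muscle markers moved the same way, at a median log2 ratio of -0.39 and summed levels of 266 and 198 TPM. So did macrophage (-0.29), fibroblast (-0.20) and endothelial (-0.10) markers, while cardiomyocyte markers moved the other way (0.13). The part of any of these in the difference of Ndufa4l2 was not tested.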

How the data were processed

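Total RNA of 2 hearts was measured, and the 2 libraries form 1 group. The deposited gene tables give expected counts from alignments, the deposited transcript tables also estimated counts from reads, all without normalization, per the file headers. TPM was computed by the authors over genes and spike-ins together, per the file headers and entries. Columns taken as scores are deposited credibility bounds of TPM, and the percent column gives each transcript's deposited share of its gene, per the file headers. The listings name mm10 and GENCODE M21; tools and versions were not given in the sources used here. Members and gene lists were chosen with earlier results of these data known.

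Read-based transcripts were summed to genes. TMM factors came from edgeR 4.0.16 in R 4.3.3, over genes whose mean count reached 10, and counts were rounded for the exact binomial test (threshold 0.05, minimum ratio 2). Ratios of TPM used a pseudocount of 0.1. Values were given for every assembly factor, the highest and lowest members of each module, and members called or unlike between quantifications. They were also given for the 10 highest members whose leading transcript was unstable or not annotated as protein coding. The rest are given as ranges. Shared sequence was found by exact matching of runs of 31 bases over all annotated transcripts. The comparison of libraries was tested on simulated data with counting noise only (15839 genes, 200 changed per fold): 26 of 200 were called at 1.1-fold, 131 at 1.5-fold, 177 at 2.5-fold and 17 of 15239 unchanged genes; the other steps were not so tested. Alternatives were other scalings (DESeq2 1.42.0, spike-in totals, total counts), the read-based tables, posterior means of TPM, rescaling to nuclear coding genes, other filters and pseudocounts, and leaving out each heart. Software was Python 3.11.15 with pandas 2.3.3, matplotlib 3.10.9, scipy 1.17.1 and numpy 2.4.6. Alleles of the hybrid were not analysed here, and 1 subunit enters the counts and medians but is not reported here by name or drawn.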

Additional observations from a re-analysis of the deposited data

How the results depend on the processing

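Of 87 alternative values for 16 results, 48 were labelled as the same, 36 as moved and 3 as reversed. Levels counted as the same within the SD between hearts, counts within a fixed fold, and library ratios only if equal after rounding. A change of sign counted as reversed. Read-based tables gave medians of 456 TPM for subunits, 26.1 for Ndufaf factors and 435, 496, 355 and 459 for the N, Q, proximal P and distal P modules, and a log2 ratio of subunits to factors of 4.12. Posterior mean TPM gave 323, 22.95, 345 (Q), 336 (proximal P) and 281 (distal P) and a ratio of 3.81. Rescaling to protein-coding nuclear genes gave 840.4, 58.6, 826, 901, 879 and 735 TPM. The ratio was 3.79 with a pseudocount of 1, 3.80 with the other assembly factors and 3.54 in expected counts, where Ndufaf4 exceeded Ndufb4. It was 4.62 in TPM of coding transcripts, a setting added after the data were seen. That setting dropped the subunits whose leading transcript was not annotated as protein coding but kept all 8 Ndufaf factors. Of these factors 3 had such a leader, so subunits and factors were not filtered alike and the rise cannot be read as a larger gap.

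Median log2 library ratios of subunits and Ndufaf factors were 0.0757 and 0.106 with DESeq2 size factors, 0.0564 and 0.0863 with total counts, 0.106 and 0.145 with read-based counts, -0.0133 and 0.0166 with spike-in totals, and -0.00625 and -0.00209 in deposited TPM, which was added after the data were seen, as was the count of subunits higher in replicate 2. That count was 35 with DESeq2 size factors, 32 with total counts, 35 with read-based counts, 31 in TPM rescaled to protein-coding nuclear genes, 13 with spike-in totals and 16 in deposited TPM, and 9 members were called with spike-in totals. The causes of these shifts were not tested. The median coding share was 94.1% read-based and 92.1% over members of at least 10 TPM. With each heart left out in turn, medians were 326 to 329 TPM for subunits, 22.8 to 22.8 for Ndufaf factors, 317 to 327 (N), 350.3 to 352 (Q), 338 to 347 (proximal P) and 286 to 287 (distal P), the ratio 3.83 to 3.84, detected members 46, coding leaders 38 and the coding share 92.8 to 93.8%. The 0 strict calls held in every setting tried, and at 10 TPM 44 members were detected. No paired analysis was possible because the labels give 1 group. With 2 libraries the spread between hearts is known only roughly.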
